A study of Mus musculus with 22 samples.

Results

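Day 7 tumor CD8+ T cells that lacked VHL and were sorted as Trm (tissue-resident memory) were compared with VHL-deficient day 7 tumor cells sorted as nonTrm. The members are the 4 libraries labelled V, read here as VHL-deficient, with either sort, 2 Trm and 2 nonTrm, out of 22 libraries in 10 groups. The cells were P14 T cells, which carry a transgenic receptor for a viral peptide, on the C57BL/6 strain, from mice of 6 to 12 weeks, and the series design gives 5 mice to a biological replicate. WT (wild type) P14 cells sorted the same way, 2 Trm and 2 nonTrm libraries, serve as the set against which the pattern is read, and the 8 sorted libraries share 1 plate column. The sources used here name neither the tumor nor the gate that defined Trm, nor how VHL was lost or what happened on day 0.

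Resident memory CD8+ T cells stay in a tissue instead of returning to the blood. They hold on through the integrin CD103, whose alpha chain is encoded by Itgae and which binds E-cadherin on epithelial cells, and through CD69, which removes the egress receptor S1PR1 from the surface, and they lower Klf2, the factor that drives S1pr1. TGF-beta and the factor RUNX3 are known to raise Itgae. The VHL protein marks hydroxylated HIF alpha subunits for degradation, so cells without it hold HIF and its targets, many of them enzymes of glycolysis, switched on.

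Levels below are size-factor scaled counts, which correct for library depth and not for gene length. Differences are log2 fold changes (log2FC) of scaled count plus 1, Trm over nonTrm, and adjusted p-values come from limma with Benjamini-Hochberg adjustment over 14327 tested genes. Replicate 1 is given before replicate 2. The groups are called apart when both Trm libraries lie above, or both below, both nonTrm libraries. A p-value reflects only how far libraries scatter within their groups, with a spread pooled over all 10 groups and 22 libraries. In bulk libraries, fewer cells of a type and less RNA per cell cannot be told apart.

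The 4 libraries were not of equal quality. VHL-deficient nonTrm replicate 2 gave 45.7% of its reads to ribosomal RNA, against 26.9% to 30.7% in the other 3, and kept 1996942 reads outside ribosomal RNA and the mitochondrial genome, against 4780502 to 6153480. Its level of Malat1, a nuclear RNA, was 34358, while the other 21 libraries of the series had 4839 to 15027. The nonTrm libraries correlated less with each other (Pearson r = 0.858 across tested genes) than either Trm library did with nonTrm replicate 1 (r = 0.940 and 0.955). They differed by more than 2-fold in 46.4% of tested genes, against 21.9% for the Trm libraries. Cytosolic ribosomal protein genes, 98 in all, had a median difference of 1.92 between nonTrm replicate 2 and replicate 1, and 88 of them were higher in replicate 2. Short genes were high in that library as well, with a median difference of 1.07 in the shortest of 4 equal bins by exon length and -0.45 in the longest. The Trm libraries differed with length too, replicate 2 minus replicate 1 having a median of -0.38 in the shortest bin and 0.31 in the longest. The part of nonTrm replicate 2 in each result below was not tested, and the main list medians are therefore given against each nonTrm library.

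**Figure D1:**
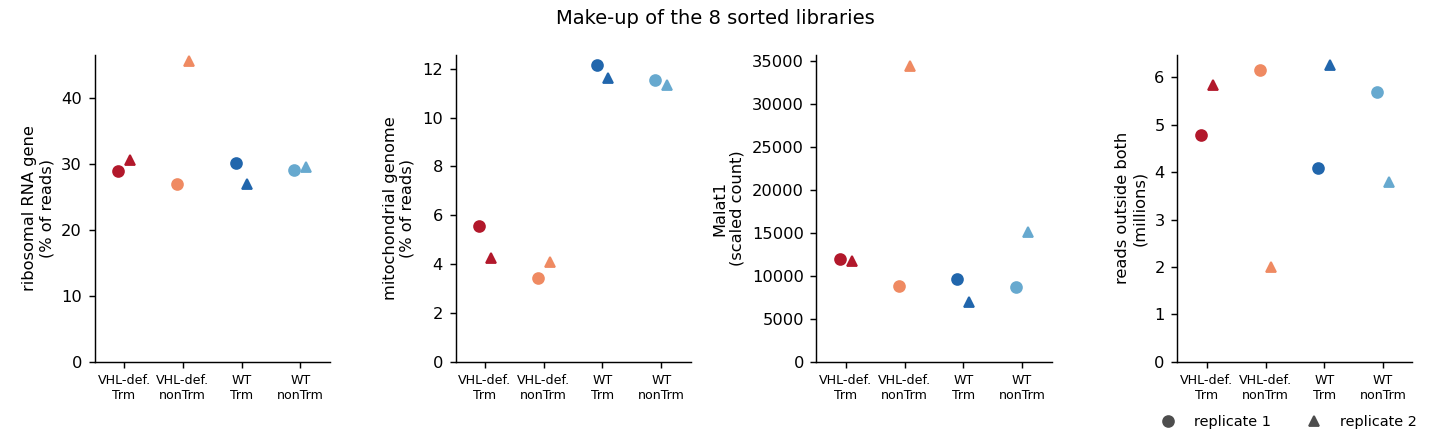
Make-up of the 8 sorted libraries, 1 point per library (circle replicate 1, triangle replicate 2): percent of reads in the ribosomal RNA gene, percent in the mitochondrial genome, scaled count of Malat1, and reads outside the first pair (scaled as the axis states). VHL-deficient nonTrm replicate 2 has the highest ribosomal share, 45.7%, the highest Malat1 level, 34358, and the fewest other reads.

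Vhl reads and T-cell markers went with the labels in all 4 libraries. The macrophage, dendritic-cell and NK-cell lists were not near 0, and the members named at 0 reads do not stand for their whole lists. Vhl had 0 and 13 reads in the Trm libraries and 32 and 4 reads in the nonTrm libraries, against 60 to 280 reads in each WT library of the series. As scaled counts Vhl stood at 0 and 10.1 in Trm cells and 21.9 and 10.9 in nonTrm cells. The groups were thus narrowly apart with Trm lower, at few reads (log2FC -2.31, limma adjusted p = 0.524). Cd3e, a chain of the T-cell receptor complex, stood at 2184 and 1863 in Trm cells and 1449 and 2884 in nonTrm cells. Cd8a stood at 13429.5 and 6874 in Trm cells and 2886 and 7049 in nonTrm cells, so that Trm replicate 2 lay just below nonTrm replicate 2 (log2FC 1.09, adjusted p = 0.524). Summed over the list of T-cell markers, the level was 89460 and 68220 in Trm cells and 56660 and 116100 in nonTrm cells. The 9 melanoma markers summed to 77.5 and 66.8 in Trm cells and 59.5 and 60.0 in nonTrm cells. The 10 B-cell markers summed to 193 and 196 in Trm cells and 127 and 297 in nonTrm cells, with 6 of them, Pax5 included, at 0 reads in all 4 libraries. The 12 neutrophil markers summed to 2.09 and 23.3 in Trm cells and 43.8 and 21.8 in nonTrm cells, with Mpo and 4 others at 0. Dendritic-cell and class II markers summed to 2759 and 2482 in Trm cells and 1860 and 4507 in nonTrm cells, with Clec9a and Cd209a at 0. Fibroblast and endothelial markers summed to 217 and 334 in Trm cells and 259.8 and 158 in nonTrm cells, and erythroid markers to 14.7 and 20.2 in Trm cells and 12.3 and 2.73 in nonTrm cells, with Hba-a1, Hbb-bs and Hbb-bt at 0. Macrophage and monocyte markers summed to 4638 and 8389 in Trm cells and 5505 and 2038 in nonTrm cells, with C1qa at 0, and NK-cell markers to 11530 and 10870 in Trm cells and 8680 and 19540 in nonTrm cells. The list of CD4 and regulatory T-cell markers followed the sort, with sums of 12520 and 13670 in Trm cells and 8448 and 7456 in nonTrm cells. Of its 7 tested members 4 were apart with Trm higher (57.1%, beside 13.3% over all genes) and 1 with Trm lower. The list had a median log2FC of 0.68. Most of the sum came from Ctla4, which is also on the list of inhibitory receptors and is described with them. Cd4 itself stood at 25.1 and 15.5 in Trm cells and 9.57 and 5.46 in nonTrm cells. A list sum does not show which cells made the RNA, and the part of these cell types in the results was not tested.

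Itgae was the gene that set the sorts apart. It stood at 373 and 1763 in the VHL-deficient Trm libraries and at 17.8 and 16.4 in the nonTrm libraries. The Trm mean of 1068 ± 983 was 62.6 times the nonTrm mean of 17.1 ± 0.996 (SD, n = 2 each), and the lower Trm library still stood far above the higher nonTrm library. Itgae rose in Trm cells with a log2FC of 5.49 (SE 0.68, adjusted p = 0.00135), the smallest p, the highest log2FC and the widest gap among the 14327 genes. It lies on chromosome 11 of mm10, from 73090583 to 73147446 on the plus strand. CD103 is a common sort marker for such cells, so where the gate used it this difference is the gate itself, and Itgae is given as a check of the sort.

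The size of the Itgae difference rested on Trm replicate 2, which stood 4.73 times above Trm replicate 1. Without replicate 2 the log2FC was 4.37 and the adjusted p was 0.13. Leaving out the doubted nonTrm replicate 2 left a log2FC of 5.43 and an adjusted p of 0.028. The call was also lost where the spread was estimated otherwise: the adjusted p was 0.0584 with voom on the recovered reads, 0.263 with the 8 sorted libraries alone, 0.425 with library weights and 0.661 with the 4 libraries alone.

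Across the series, VHL-deficient cells had more Itgae than WT cells in each sort. WT Trm libraries had 14.9 and 37.3 and WT nonTrm libraries had none in either. Set against a floor of 3 reads per library, the WT Trm mean was at least 8.93-fold higher than the WT nonTrm level. Itgae was called in WT as well (log2FC 4.62, adjusted p = 0.00894, a fitted value that depends on the pseudocount), and the difference between the genotypes in this contrast did not pass (adjusted p = 0.796). Unsplit VHL-deficient day 7 tumor cells held 123 and 159.9, between both sorts, and unsplit WT tumor cells held 2.18 and 4.70. Day 11 tumor cells held 72.2 to 192 when VHL-deficient and 4.32 to 14.6 when WT. In spleen the VHL-deficient libraries held 250.3 and 619, overlapping the range of the VHL-deficient Trm cells, and the WT libraries held 102 and 183. The spleen, unsplit and day 11 libraries lay in other plate columns than the sorted ones, so column and sort cannot be told apart in that comparison.

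**Figure D2:**
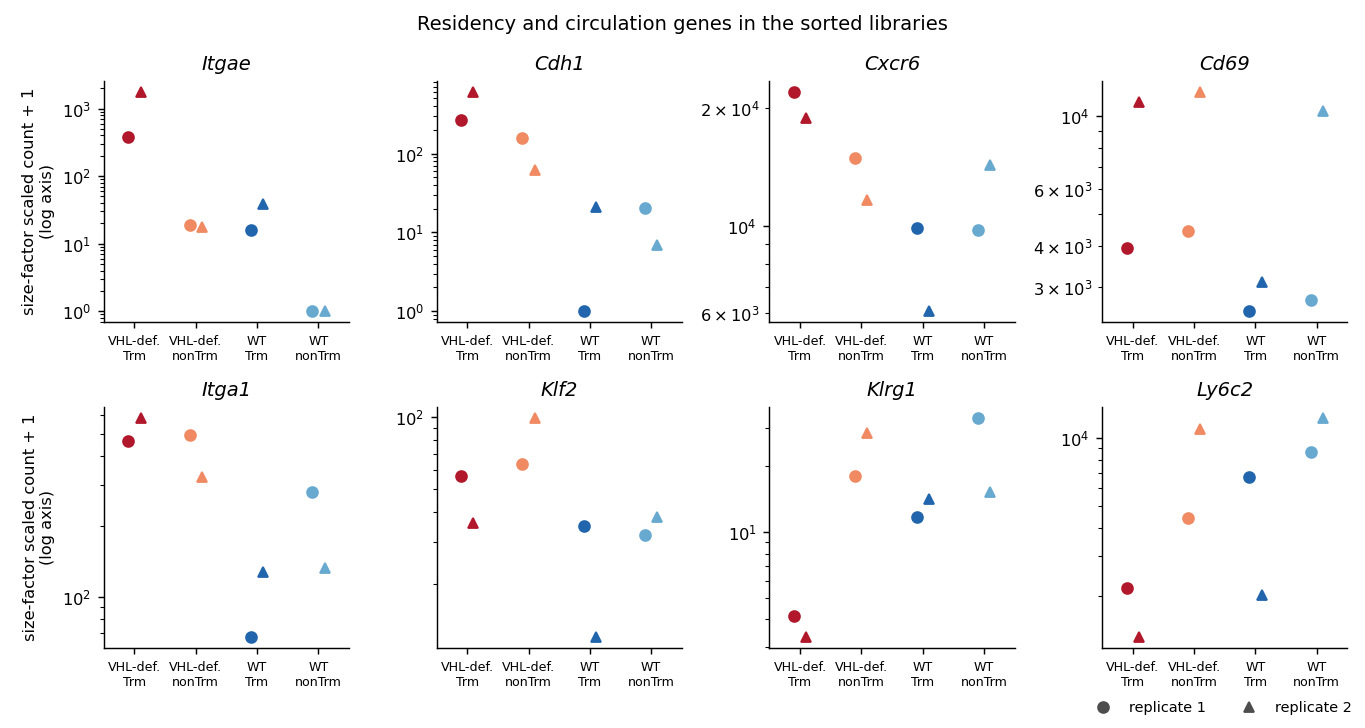
Size-factor scaled count plus 1 (log axis) of 8 residency and circulation genes in the sorted libraries, 1 point per library (circle replicate 1, triangle replicate 2), with VHL-deficient cells to the left of WT cells. In VHL-deficient cells Itgae, Cdh1 and Cxcr6 lie above nonTrm in both Trm libraries, Klf2, Klrg1 and Ly6c2 lie below, and Cd69 and Itga1 overlap.

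No other gene passed: 1 gene was called higher, 0.00698% of those tested, and 0 lower. At an unadjusted p under 0.05 there were 889 higher and 368 lower genes (8.77% together), and voom on the recovered reads called 0 with 897 at that unadjusted level. The next smallest adjusted p was 0.327. Without reference to a test, 1910 genes (13.3%) were apart with Trm higher and 1618 (11.3%) with Trm lower, and the gene groups below are read against these shares.

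Besides Itgae, the surface molecules of residency followed the sort unevenly. The list of 28 tested genes includes Itgae, which was its 1 called gene. With Itgae counted, 9 were apart with Trm higher (32.1%, beside 13.3% over all genes). A further 5 were apart with Trm lower (17.9%, beside 11.3%). The median log2FC of the list was 0.35, against 0.02 over all tested genes. It was 0.24 against nonTrm replicate 1, 0.61 against replicate 2 and 0.22 without Trm replicate 2. With P2rx7, which had no read in 1 sort, set at a floor of 3 reads per library, the list median was 0.27.

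Cdh1, which encodes E-cadherin, the ligand of CD103, stood at 265 and 602 in Trm cells and 155 and 60.0 in nonTrm cells (log2FC 2.04, SE 1.29, adjusted p = 0.657). The groups were apart, but each varied more than 2-fold between its own replicates. Cxcr6, the receptor for the membrane-bound chemokine CXCL16, stood at 21968 and 18900.3 in Trm cells and 14944 and 11649 in nonTrm cells (log2FC 0.63, adjusted p = 0.572). Its groups were apart too, while in WT cells they overlapped. Cd69 did not part the sorts: it stood at 3941 and 11065 in Trm cells and 4442 and 11867 in nonTrm cells (log2FC -0.14, adjusted p = 0.954). In both sorts the second replicate was the high one, and so was the second WT nonTrm replicate, at 10359. Itga1, the alpha chain of a collagen-binding integrin (CD49a), overlapped at 463 and 584 in Trm cells and 492 and 325 in nonTrm cells. Rgs1, which dampens signals of chemokine receptors, overlapped at 16779 and 6618 in Trm cells and 11285 and 11726 in nonTrm cells.

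The genes of egress and circulating memory split in the same way. Of 28 tested, none was called. Apart with Trm higher were 3 (10.7%, beside 13.3% over all genes), and 5 were apart with Trm lower (17.9%, beside 11.3%). Ly6c2, whose protein marks circulating effector and memory CD8+ T cells, stood at 2167 and 1311 in Trm cells and 4437 and 10994 in nonTrm cells (log2FC -2.05, SE 0.46, adjusted p = 0.327). Both Trm libraries lay below both nonTrm libraries, and the difference of the Trm mean was -1.40 against nonTrm replicate 1 and -2.70 against replicate 2. Reads of Ly6c2 and its near-identical neighbour Ly6c1 may be split uncertainly, and Ly6c1 stood at 31.4 and 14.0 in Trm cells and 44.4 and 172 in nonTrm cells. Klrg1, a receptor of terminal effector cells, stood at 3.14 and 2.33 in Trm cells and 17.1 and 27.3 in nonTrm cells (log2FC -2.61, adjusted p = 0.524), a level of few reads. Klf2 stood at 55.5 and 34.9 in Trm cells and 62.2 and 98.2 in nonTrm cells (log2FC -0.81, adjusted p = 0.661).

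Other genes of that list did not follow. S1pr1, the receptor that leads cells out of tissue, overlapped at 77.5 and 263 in Trm cells and 240.0 and 205 in nonTrm cells. Trm replicate 1 was the low library and Trm replicate 2 the highest of the 4. Ccr7, which guides cells to lymph nodes, was apart with Trm higher, at 3445 and 5505 in Trm cells and 3352 and 3004 in nonTrm cells (log2FC 0.46, adjusted p = 0.805). Cx3cr1, a receptor of circulating effector cells, also stood higher in Trm cells, at 213 and 160 against 96.4 and 35.5 in nonTrm cells (log2FC 1.64, adjusted p = 0.524). Itgb2, the beta chain of LFA-1, stood at 7643 and 6715 in Trm cells and 5004 and 2586 in nonTrm cells (log2FC 0.99, adjusted p = 0.469). Cxcr3, a chemokine receptor of effector T cells that lies on another list, stood at 259 and 394 in Trm cells and 576 and 1102 in nonTrm cells (log2FC -1.32, adjusted p = 0.469). In WT cells 13 of the 28 genes of egress and circulating memory were apart with Trm lower and 0 with Trm higher. The shares over all tested genes there were 18.2% and 21.5%. The list median was -0.57 in WT cells and -0.06 in VHL-deficient cells. S1pr1 was apart with Trm lower in WT cells, at 77.0 and 70.1 in Trm cells and 149 and 397 in nonTrm cells.

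Among transcription factors of residency and effector fate, none of 18 was called or apart with Trm higher. Nr4a3 and Maf, both named after their values were seen, were apart with Trm lower, 11.1% of the list beside 11.3% over all genes. Runx3 stood at 687 and 777 in Trm cells and 744 and 810.3 in nonTrm cells (log2FC -0.09, SE 0.29). Prdm1, which encodes Blimp-1, stood at 349 and 455 in Trm cells and 239 and 355 in nonTrm cells (log2FC 0.45, adjusted p = 0.748). Zfp683, which encodes Hobit, was at few reads in all 4, at 14.7 and 12.4 in Trm cells and 32.1 and 10.9 in nonTrm cells. Tcf7, the factor of stem-like cells, stood at 56.5 and 329 in Trm cells, on either side of the 163 and 166 in nonTrm cells. Eomes was near 0, at 1.05 and 0.776 in Trm cells and 8.89 and 0 in nonTrm cells. Bhlhe40 stood at 12404 and 10989 in Trm cells and 11231 and 7611 in nonTrm cells, and Id2 at 5323 and 3543 in Trm cells and 3000.3 and 9704 in nonTrm cells. Apart from Itgae itself, no member of the 19 genes of the TGF-beta list was called or apart with Trm higher, and the list median was -0.11 against nonTrm replicate 1 and 0.32 against replicate 2.

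Inhibitory receptors were apart with Trm higher more often than tested genes at large. Of 19 tested, 8 were apart with Trm higher (42.1%, beside 13.3% over all genes) and 1 with Trm lower, and none was called. The list median was 0.35, and it was 0.28 against nonTrm replicate 1, 0.57 against replicate 2 and 0.14 without Trm replicate 2. In WT cells, where 21.5% of all tested genes were apart with Trm higher and 18.2% with Trm lower, 3 members were apart with Trm higher and 3 with Trm lower, with a median of -0.03, and no member passed the test of the difference between genotypes.

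Lag3, which binds MHC class II, stood at 10405 and 7203 in Trm cells and 4353 and 3397 in nonTrm cells (log2FC 1.17, SE 0.25, adjusted p = 0.327). Its unadjusted p of 0.000137 came next after that of Itgae among genes chosen after their p-values were seen. Those genes had to be apart and above the median level, and 9 of all tested genes shared the adjusted p of 0.327. In WT cells Lag3 was apart in the same direction, at 9717 and 7232 in Trm cells and 4072 and 4611 in nonTrm cells. Havcr2, which encodes TIM-3, stood at 3824 and 2709.7 in Trm cells and 2005 and 808 in nonTrm cells (log2FC 1.34, adjusted p = 0.469). Pdcd1, which encodes PD-1, stood at 6085 and 4103 in Trm cells and 3514 and 1997 in nonTrm cells (log2FC 0.92, adjusted p = 0.544). Both were apart, with nonTrm replicate 2 as the lowest library. Ctla4 stood at 11653 and 12663 in Trm cells and 7512 and 6646 in nonTrm cells (log2FC 0.78, adjusted p = 0.524). Klrc1, which encodes NKG2A, stood at 3189 and 2630.5 in Trm cells and 2105 and 903 in nonTrm cells, and Entpd1, the ectoenzyme CD39, at 770.5 and 615 in Trm cells and 437 and 251 in nonTrm cells. Costimulatory receptors did not lean to Trm as a list, with a median of -0.03. Of 16 tested, 2 were apart with Trm higher (12.5%, beside 13.3%) and 1 with Trm lower (6.25%, beside 11.3%). Tnfrsf9 (4-1BB), of the higher ones, stood at 14992 and 8789.8 in Trm cells and 6183 and 4701 in nonTrm cells (log2FC 1.09, adjusted p = 0.469). It was apart in the same direction in WT cells, at 7947 and 6899 in Trm cells and 3710 and 3707 in nonTrm cells.

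Of 21 cytotoxic molecules none was called. Apart with Trm higher were 4 (19.05%, beside 13.3% over all genes), and 1 was apart with Trm lower (4.76%, beside 11.3%). Prf1, the pore-forming perforin, stood at 25153 and 14299 in Trm cells and 6969.5 and 2769 in nonTrm cells (log2FC 2.11, SE 0.47, adjusted p = 0.327). WT cells had Prf1 apart in the same direction, at 7575 and 7230.4 in Trm cells and 3329.8 and 1709.8 in nonTrm cells. Gzmb, the granzyme that perforin delivers, overlapped, with 165728 and 75231 in Trm cells and 37037 and 80911 in nonTrm cells (log2FC 1.03, adjusted p = 0.587). Gzma stood at 14955 and 4030.4 in Trm cells and 5576 and 8714 in nonTrm cells, and Gzmc at 40528 and 5705 in Trm cells and 7659 and 11232 in nonTrm cells. For each of these 3 granzymes Trm replicate 1 was the highest of the 4 libraries. Of the 21 genes, 10 lay above nonTrm replicate 1 in both Trm libraries and 5 above nonTrm replicate 2, beside 31.8% and 40.8% of all tested genes, so the count turned on which nonTrm library was used.

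Cytokines showed no common direction. Of 21 genes, 3 were apart with Trm higher (14.3%, beside 13.3% over all genes) and 1 with Trm lower (4.76%, beside 11.3%). Ifng stood at 1839 and 363 in Trm cells and 592 and 1037 in nonTrm cells (log2FC 0.06, SE 0.49). Ccl4 stood at 5016 and 1488 in Trm cells and 4454 and 6804 in nonTrm cells (log2FC -1.01, adjusted p = 0.541), and Ccl5 at 6609.6 and 5189 in Trm cells and 3201 and 16118 in nonTrm cells. The list median was -0.29, but its sign rested on single libraries: it was 0.03 without nonTrm replicate 2 and 0.16 without Trm replicate 2. In WT cells 10 of the 21 were apart with Trm higher, beside 21.5% of all tested genes there, and the list median was 1.15.

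The 250 bases before the start of Prf1 and of Ly6c2 are shown because these genes stood well apart in opposite directions and RUNX factors are known regulators of the cytotoxic and residency programs. Sequences and coordinates are from RefSeq on GRCm38.p6, chr10:61297586-61297835 on the plus strand for Prf1 and chr15:75111972-75112221 on the minus strand for Ly6c2. Capitals mark the letters ACCACA, the core of the RUNX motif, searched on both strands (TGTGGT on the other).
Prf1: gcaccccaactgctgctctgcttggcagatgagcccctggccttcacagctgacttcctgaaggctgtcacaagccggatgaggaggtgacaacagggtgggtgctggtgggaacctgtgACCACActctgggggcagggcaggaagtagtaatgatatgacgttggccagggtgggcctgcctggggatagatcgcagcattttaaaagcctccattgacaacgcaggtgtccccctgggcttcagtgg
Ly6c2: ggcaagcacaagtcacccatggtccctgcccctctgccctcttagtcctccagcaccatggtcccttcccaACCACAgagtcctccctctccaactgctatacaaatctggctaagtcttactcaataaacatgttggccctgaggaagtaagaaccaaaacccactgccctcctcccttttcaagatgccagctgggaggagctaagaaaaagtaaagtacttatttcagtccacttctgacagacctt
Each window held 1 match, 130 bases before the start in Prf1 and 179 in Ly6c2. Of 32851 RefSeq promoters of the same length, 14.05% held at least 1 match. A match describes the letters only.

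HIF targets in glucose uptake and glycolysis stood higher in Trm cells more often than other genes did. Of 26 tested, none was called, 9 were apart with Trm higher (34.6%, beside 13.3%) and 0 with Trm lower. At an unadjusted p under 0.05, limma gave 7 higher and 0 lower, beside 6.21% and 2.57% of all tested genes. The list median was 0.53, and it was 0.27 against nonTrm replicate 1 and 1.02 against replicate 2. WT cells had 8 apart with Trm higher and 1 lower, beside 21.5% and 18.2% of all tested genes in WT. The WT list median was 0.26.

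Pkm, which makes pyruvate, stood at 25322 and 21902 in Trm cells and 16532 and 9780.3 in nonTrm cells (log2FC 0.89, adjusted p = 0.479). Pgk1, the phosphoglycerate kinase, stood at 5275 and 3775 in Trm cells and 2638 and 3527 in nonTrm cells (log2FC 0.55, adjusted p = 0.555). Gpi1, which converts glucose 6-phosphate, stood at 11448 and 9396 in Trm cells and 8003 and 7759 in nonTrm cells. Gpi1 and Pgk1 kept their direction against each nonTrm library, by 0.37 and 0.76 against replicate 1 and by 0.42 and 0.34 against replicate 2. Pfkp, a phosphofructokinase, stood at 5989 and 6746 in Trm cells and 5521 and 2322 in nonTrm cells, a difference of 0.20 against replicate 1 and 1.45 against replicate 2. The glucose transporter gene Slc2a1 stood at 1847 and 1778 in Trm cells and 1814 and 895 in nonTrm cells, so it overlapped nonTrm replicate 1. Ldha, which turns pyruvate into lactate, stood at 38173 and 25686 in Trm cells and 20598 and 38417 in nonTrm cells, and Aldoa at 42928 and 31776 in Trm cells and 25077 and 55141 in nonTrm cells. In these last 2 genes nonTrm replicate 2 was the highest library.

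Other HIF targets were mixed. Of 32 genes, 7 were apart with Trm higher (21.9%, beside 13.3% over all genes) and 3 with Trm lower (9.38%, beside 11.3%). The list median was 0.12, which was -0.02 without Trm replicate 2. Egln3, the prolyl hydroxylase that HIF itself induces, stood at 3579 and 2837 in Trm cells and 2192 and 2103 in nonTrm cells (log2FC 0.57, adjusted p = 0.584). Ndrg1 stood at 4425 and 4304 in Trm cells and 3078 and 2109 in nonTrm cells (log2FC 0.78, adjusted p = 0.524). P4ha1, a collagen prolyl hydroxylase, stood at 2757 and 3059 in Trm cells and 2172 and 1157 in nonTrm cells (log2FC 0.87, adjusted p = 0.524). All 3 were apart with Trm higher in VHL-deficient cells and overlapped in WT cells. Vegfa, the endothelial growth factor, was apart the other way, at 54.4 and 69.1 in Trm cells and 80.0 and 128 in nonTrm cells (log2FC -0.71, adjusted p = 0.71). Hilpda, a lipid droplet protein, stood at 5368 and 5739 in Trm cells and 3847 and 15406 in nonTrm cells, where nonTrm replicate 2 was the high one. Hif1a itself overlapped, at 1396 and 1794 in Trm cells and 2259 and 1337 in nonTrm cells.

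Nuclear genes of oxidative phosphorylation turned their direction with the nonTrm library. Of 53 tested, 32 lay above nonTrm replicate 1 in both Trm libraries and 2 below it, beside 31.8% and 28.3% of all tested genes. Against nonTrm replicate 2, 4 lay above it in both Trm libraries and 47 below, beside 40.8% and 39.6%. The median difference was 0.33 against replicate 1 and -1.21 against replicate 2. Atp5b and Atp5a1, subunits of ATP synthase, did not share that turn: Atp5b stood at 5058 and 3222 in Trm cells and 3155 and 3126 in nonTrm cells, and Atp5a1 at 4550.5 and 3510.2 in Trm cells and 3390.1 and 1779 in nonTrm cells.

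**Figure D3:**
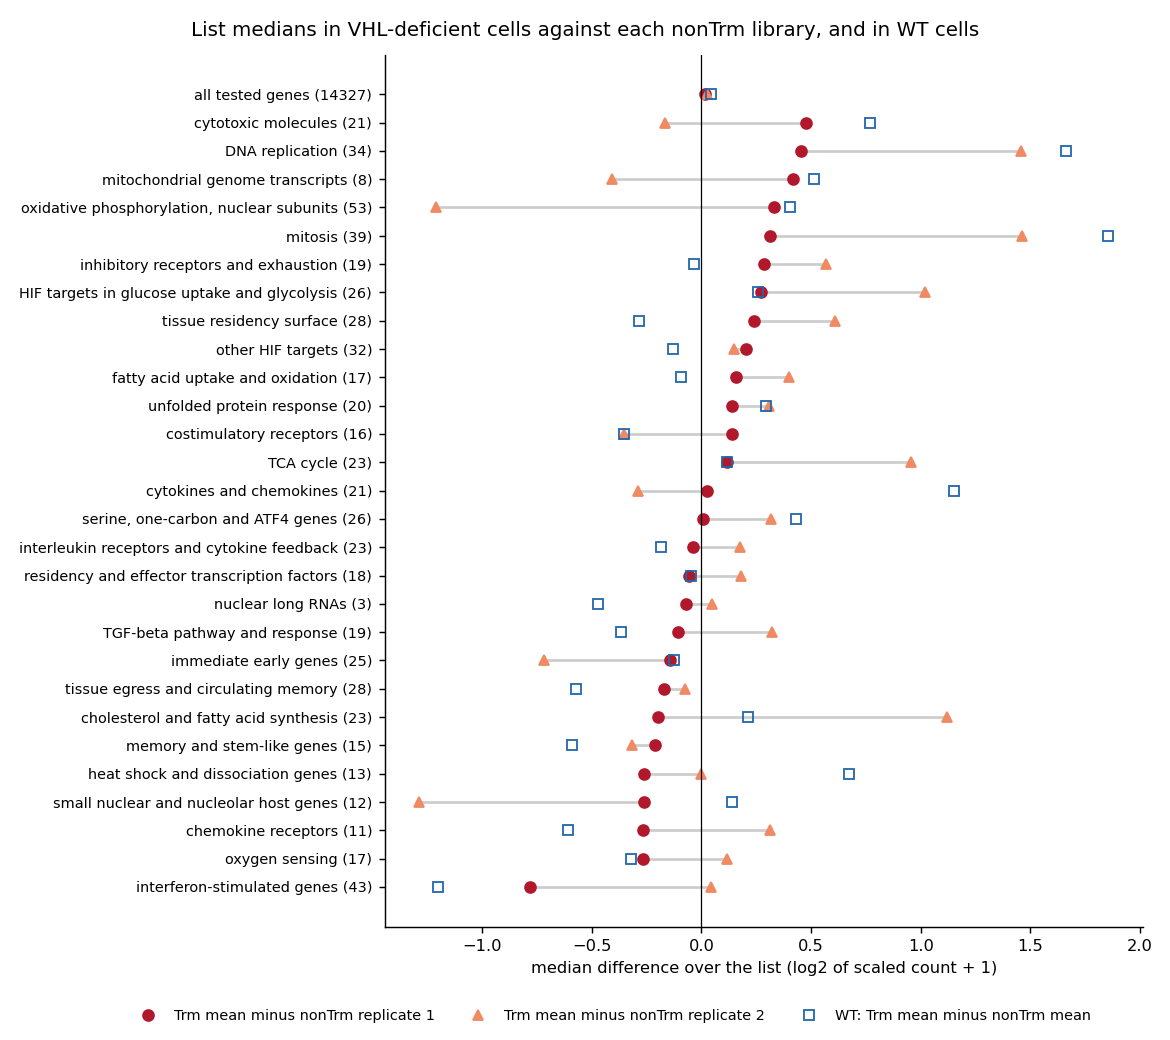
Median difference of each gene list in log2 of scaled count plus 1 (number of tested genes in brackets): VHL-deficient Trm mean minus nonTrm replicate 1 (circles) and minus nonTrm replicate 2 (triangles), and WT Trm mean minus WT nonTrm mean (open squares). Inhibitory receptors, HIF targets in glycolysis, DNA replication and mitosis lie above 0 against both nonTrm libraries, while oxidative phosphorylation lies at 0.33 against the first and -1.21 against the second.

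Proliferation genes leaned the same way in both genotypes. Of 34 DNA replication genes, 11 were apart with Trm higher (32.4%) and 0 with Trm lower, none called, with a median log2FC of 0.97. Of 39 mitosis genes, 7 were apart with Trm higher (17.9%, beside 13.3%) and 0 with Trm lower, with a median of 0.88. Both medians depended on Trm replicate 1, without which they were 0.45 for DNA replication and 0.21 for mitosis. In both Trm libraries 41.2% of the DNA replication genes and 20.5% of the mitosis genes lay above nonTrm replicate 1, beside 31.8% of all tested genes. Against nonTrm replicate 1 alone the medians were 0.45 and 0.31, and against replicate 2 they were 1.46 and 1.46. In WT cells 30 of 34 and 36 of 39 were apart with Trm higher, beside 21.5% of all tested genes there. These lists had 4 and 2 genes called in WT cells and medians of 1.66 and 1.86.

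Mki67, the marker of cycling cells, stood at 473 and 372 in VHL-deficient Trm cells and 244 and 175 in nonTrm cells (log2FC 1.02, SE 0.28, adjusted p = 0.469). In WT cells it stood at 1826 and 1742 in Trm cells and 682 and 371 in nonTrm cells and was called (log2FC 1.82, adjusted p = 0.0108), and the difference between the genotypes had an adjusted p of 0.628. Tyms, which makes thymidylate, stood at 250.2 and 123 in VHL-deficient Trm cells and 108 and 95.5 in nonTrm cells. Top2a, which untangles replicated DNA, overlapped at 859 and 592 in Trm cells and 688 and 246 in nonTrm cells. Mcm6, part of the replicative helicase, stood at 3123 and 1783 in Trm cells and 1979 and 169 in nonTrm cells, where nonTrm replicate 2 was low by more than 10-fold against every other. Pcna, the sliding clamp, stood at 1121 and 702 in Trm cells and 635 and 1157 in nonTrm cells, and Cenpa, the centromeric histone, at 1163 and 1030.3 in Trm cells and 998 and 985 in nonTrm cells.

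Interferon-stimulated genes were apart with Trm lower more often than tested genes at large. Of 43 tested, 16 were apart with Trm lower (37.2%, beside 11.3%) and 1 with Trm higher, none called, and the median log2FC was -0.59. Against nonTrm replicate 1, 38 of 43 were below it in both Trm libraries (88.4%, beside 28.3% over all genes) and the median was -0.78. Against nonTrm replicate 2, 18 were below it (41.9%, beside 39.6% over all genes) and 20 above (46.5%, beside 40.8%), and the median was 0.04. Without Trm replicate 2 the list median was -0.33. In WT cells 39 were apart with Trm lower, beside 18.2% of all tested genes there, 4 were called lower and the median was -1.20.

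Stat2, the factor that carries the interferon signal, stood at 188 and 252 in Trm cells and 448 and 412 in nonTrm cells (log2FC -0.97, SE 0.28, adjusted p = 0.469). Ifnar2, a chain of the type I interferon receptor, stood at 111 and 145 in Trm cells and 282 and 300.1 in nonTrm cells (log2FC -1.19, adjusted p = 0.469). Rtp4 stood at 509.8 and 318 in Trm cells and 892 and 1367 in nonTrm cells, and the antiviral enzyme gene Oas2 at 37.7 and 24.1 in Trm cells and 139 and 87.3 in nonTrm cells. These 4 were apart against both nonTrm libraries. Ifit1, an antiviral RNA-binding protein, stood at 683 and 533 in Trm cells and 1618 and 406 in nonTrm cells, and Irf7, which amplifies interferon production, at 729 and 549.7 in Trm cells and 1543 and 584 in nonTrm cells. Here nonTrm replicate 1 was high and replicate 2 lay near or below the Trm libraries. Ly6a (Sca-1) stood at 4016 and 3493 in Trm cells and 3232 and 11065 in nonTrm cells, and Ifi47 at 2146 and 2157 in Trm cells and 2578 and 2237 in nonTrm cells.

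Beyond the lists, genes with small unadjusted p-values were described after those p-values were seen. Alas1, the first enzyme of heme synthesis, stood at 142 and 196 in Trm cells and 62.9 and 51.8 in nonTrm cells (log2FC 1.53, adjusted p = 0.327). Gsn, the actin-severing protein gelsolin, stood at 1094 and 784 in Trm cells and 514 and 221 in nonTrm cells (log2FC 1.46, adjusted p = 0.453). Ctsc, the protease that activates granzymes, stood at 1233 and 1029 in Trm cells and 777 and 442 in nonTrm cells (log2FC 0.94, adjusted p = 0.469). In WT cells Alas1 and Gsn overlapped between the sorts. Vav3, a guanine nucleotide exchange factor, stood at 46.1 and 51.2 in Trm cells and 97.1 and 123 in nonTrm cells (log2FC -1.15, adjusted p = 0.469), and was apart in the same direction in WT cells. Gimap7, a lymphocyte GTPase, stood at 424 and 265 in Trm cells and 533 and 1067 in nonTrm cells (log2FC -1.17, adjusted p = 0.469).

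The same contrast gave more calls in WT cells, 29 genes higher (0.202%) and 14 lower (0.0977%), 0.3% together, while the test of the difference between genotypes called 0 genes, with a smallest adjusted p of 0.263 and 1156 genes (8.07%) at an unadjusted p under 0.05. The mitochondrial genome took 3.45% to 5.57% of reads in the sorted VHL-deficient libraries and 11.4% to 12.1% in the sorted WT libraries, and its part in the genotype comparison was not tested. With a further TMM scaling the WT calls were 16 higher and 16 lower, and with a scaling that left out ribosomal and mitochondrial genes they were 8 higher and 18 lower. Of the 29, 25 had a log2FC above 0 in VHL-deficient cells, 15 were apart with Trm higher and 3 with Trm lower. Of the 14, 12 had a log2FC below 0 and 5 were apart with Trm lower. Over all tested genes, 50.1% had the same sign in both genotypes. In VHL-deficient cells 13.3% of all tested genes were apart with Trm higher and 11.3% with Trm lower. The 29 had a median log2FC of 0.60 in VHL-deficient cells and 1.94 in WT cells, and the 14 had -0.41 in VHL-deficient cells and -1.92 in WT cells, but since the genes were chosen by their WT values, the larger size in WT is fixed in part by the choice. Itgae was the 1 gene called in both, 100% of the VHL-deficient calls and 2.33% of the WT calls.

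Samhd1, which breaks down nucleotides, fell in WT Trm cells, at 2316 and 1551 against 5589 and 8354 in WT nonTrm cells (log2FC -1.85, adjusted p = 0.00894). In VHL-deficient cells it overlapped, at 3295 and 4197 in Trm cells and 4855 and 3508 in nonTrm cells. Tcp11l2 stood at 422 and 704 in VHL-deficient Trm cells and 565 and 248 in VHL-deficient nonTrm cells, while WT Trm cells held 83.8 and 165 and WT nonTrm cells 493 and 702. Penk, which encodes enkephalin, rose in WT Trm cells (log2FC 3.08, adjusted p = 0.0300) and was apart in the same direction in VHL-deficient cells, at 239.7 and 158 in Trm cells and 136 and 54.6 in nonTrm cells. Rrm2 and Pola1, which supply nucleotides and start DNA synthesis, rose in WT Trm cells by a log2FC of 2.42 and 1.36 (adjusted p = 0.0481 and 0.0463). In VHL-deficient cells Rrm2 stood at 1091 and 413 in Trm cells and 415 and 101 in nonTrm cells, and Pola1 at 248 and 166 in Trm cells and 143 and 125 in nonTrm cells.

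**Figure D4:**
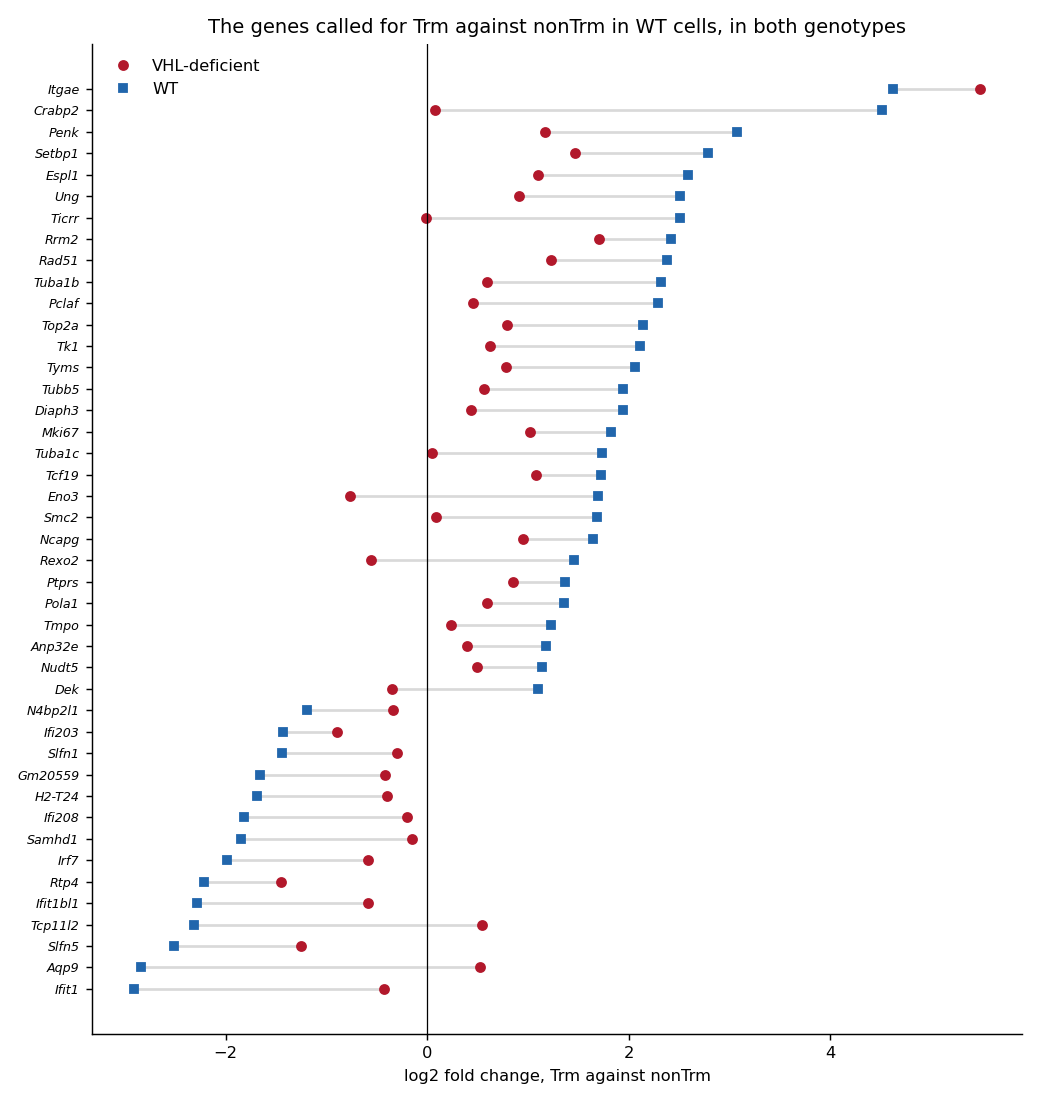
Log2FC of Trm against nonTrm for the 43 genes called in WT cells, in VHL-deficient cells (circles) and WT cells (squares). Most circles lie on the same side of 0 as their squares. Itgae is the 1 gene whose circle lies farther from 0 than its square, and its WT value depends on the pseudocount.

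How many genes were called in VHL-deficient cells depended on 1 nonTrm library. With nonTrm replicate 1 left out, so that replicate 2 stood alone with its spread borrowed from the other groups, 2543 genes were called, 1618 higher and 925 lower. With nonTrm replicate 2 left out, 1 gene was called, Itgae, and 471 had an unadjusted p under 0.05. With Trm replicate 1 left out the count was 1, and with Trm replicate 2 left out it was 0. Rps27 and Rps21, ribosomal proteins, show the gap between the nonTrm libraries: Rps27 stood at 1035 and 645 in Trm cells and 532 and 4392 in nonTrm cells, and Rps21 at 1025 and 601 in Trm cells and 458 and 3582 in nonTrm cells. In the other direction, Pus10 stood at 116 and 151 in Trm cells and 194 and 5.46 in nonTrm cells, and Heatr3 at 149.7 and 179 in Trm cells and 148 and 8.18 in nonTrm cells.

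**Figure D5:**
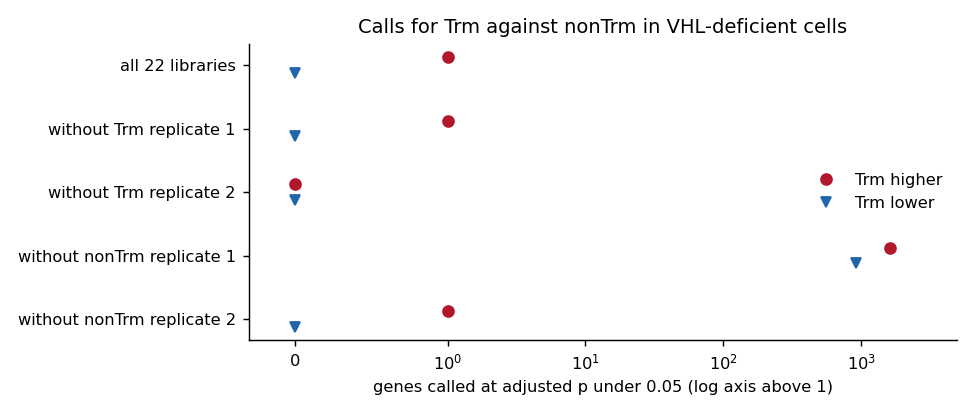
Number of genes called for Trm against nonTrm in VHL-deficient cells at an adjusted p under 0.05 (log axis above 1), with all 22 libraries and with each of the 4 libraries left out, for Trm higher (circles) and Trm lower (triangles). The count is 1 or 0 except without nonTrm replicate 1, where 1618 genes are higher and 925 lower.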

How the data were processed

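RNA from sorted mouse CD8+ T cells was sequenced. The deposited table holds a signal per gene and library, which the authors made with STAR, featureCounts and DESeq on mm10, per the submitters' processing notes, where versions are not given. Every value less an offset of 1 was a whole multiple of a library constant (100% of values within 0.01 reads), so read numbers were recovered by that step. The table has 46297 rows for 22 libraries, its header states 55 samples, and libraries held 3375558 to 10211060 reads.

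Limma 3.58.1 in R 4.3.3 was fitted to log2 of scaled count plus 1, with 10 group means over all 22 libraries and a mean-variance trend. A gene entered the test where 2 or more libraries reached 10 scaled counts, and calls were made below an adjusted p of 0.05. The procedure was tested on simulated data in which no library was of low quality. That simulation cannot show how the fit handles the doubted nonTrm library. Tables and plots used Python 3.11.15, pandas 2.3.3, numpy 2.4.6 and matplotlib 3.10.9. The planned count test on reads was not run, because the deposited values carry the offset and are not counts; limma's voom on recovered reads was added instead, after the data were seen.

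The members and the 38 gene lists were chosen with earlier results of these data known. Genes named are a set list of residency, effector, HIF and cycle genes, then called genes with the widest gap, then for each list up to 4 called members or, with none called, 2 at the highest level, then the genes with the largest difference between the nonTrm libraries. Genes named for small p-values, for WT calls and as further list members were added after their values were seen. Same-numbered replicates did not deviate together across tested genes (correlation of deviations -0.181 in VHL-deficient and -0.148 in WT cells), so the numbers were not taken as pairs. These correlations cannot decide whether same-numbered libraries came from the same mice, since differences in library make-up enter them too.
Some results are not reported here.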

Additional observations from a re-analysis of the deposited data

Results flagged for a closer look

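Of the 93 genes named, 6 were apart in opposite directions in the 2 genotypes, as were 574 of all tested genes (4.01%), while 851 (5.94%) were apart in the same direction. The test of the difference between genotypes called none of the 6. The values that follow are that difference, the VHL-deficient log2FC minus the WT log2FC.

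Tnfrsf13b, a receptor of the TNF family, had a difference of 2.11 (limma adjusted p = 0.46), with 156 and 175 in VHL-deficient Trm cells and 82.7 and 30.0 in VHL-deficient nonTrm cells, against 83.8 and 89.1 in WT Trm cells and 134 and 97.8 in WT nonTrm cells. Srm, spermidine synthase, had a difference of -2.74 (adjusted p = 0.263), with 69.1 and 30.3 in VHL-deficient Trm cells and 95.7 and 128 in VHL-deficient nonTrm cells, against 295 and 268 in WT Trm cells and 115 and 87.0 in WT nonTrm cells. Aqp9, a glycerol channel, had a difference of 3.36 (adjusted p = 0.389), at low levels in all 8 libraries. Eno3, an enolase, had a difference of -2.46 (adjusted p = 0.339). For Rexo2, an RNA exonuclease, the difference was -2.02 (adjusted p = 0.376). For Dek, a chromatin protein, it was -1.46 (adjusted p = 0.389). Aqp9, Eno3, Rexo2 and Dek were called in WT cells, which is how they came to be looked at.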

How the results depend on the processing

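In VHL-deficient cells the count of 1 called gene became 2 with a filter of 1 scaled count in 2 libraries and 0 with library weights (272 at an unadjusted p under 0.05), with the 8 sorted libraries alone (424), with the 4 libraries alone (173) and with voom (897). In WT cells the count of 43 became 67 with a filter on a mean of 50, 74 with a pseudocount of 5, 1 without the trend, 0 with the 8 sorted libraries (800) or the groups compared alone (1248), 163 with voom and 26 with the scaling without ribosomal and mitochondrial genes, which moved the WT median of all genes to -0.12. The replicate block gave 1 call in VHL-deficient cells, 116 in WT cells and 0 for the difference between genotypes. A crossed replicate block, tried since the correlations were under -0.1, gave 2, 240 and 3. With 1 sorted library left out, the counts spanned 0 to 2543 in VHL-deficient cells, 0 to 219 in WT cells and 0 to 1494 for the difference between genotypes. The cause was not tested in any of these.

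The log2FC of 2 named genes turned sign with TMM scaling, to 0.064 for Aldoa and 0.055 for Cd3e. That of 30 of the 93 named genes turned when 1 library was left out. The range, lowest to highest, was -0.88 to 0.61 for Cd69, -0.80 to 0.54 for Rgs1, -0.18 to 0.0015 for Runx3, -1.19 to 0.28 for Zfp683, -1.16 to 0.53 for Id2, -2.38 to 0.93 for Eomes, -1.53 to 0.99 for Tcf7 and -1.50 to 0.25 for S1pr1. It was -0.79 to 1.10 for Gzma, -0.70 to 2.13 for Gzmc, -1.11 to 1.23 for Ifng, -1.46 to 0.87 for Ccl5, -0.51 to 0.24 for Hif1a, -0.0016 to 1.02 for Slc2a1, -0.30 to 0.60 for Ldha, -0.58 to 0.56 for Aldoa and -1.47 to 0.53 for Hilpda. It was -0.38 to 0.48 for Pcna, -1.42 to 0.57 for Ifit1, -1.56 to 0.21 for Ly6a, -1.29 to 0.12 for Irf7, -2.43 to 0.62 for Rps27, -2.19 to 0.78 for Rps21, -0.55 to 4.37 for Pus10 and -1.54 to 0.42 for Malat1. It was -1.06 to 0.68 for Cd3g, -0.52 to 0.48 for Cd3e, -1.05 to 0.55 for Nkg7, -0.38 to 0.084 for Samhd1 and -0.053 to 1.13 for Tcp11l2. Eomes and Klrg1 rest on few reads.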
